A study of Mus musculus with 4 samples.

Results

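A set of 10 genes that receive, relay or restrain the TGF-beta signal were followed in liver regulatory T cells (Tregs), chosen by symbol from the deposited table: Tgfbr1, Tgfbr2, Tgfbr3, Smad2, Smad3, Smad4, Smad7, Ski, Skil and Lrrc32. All 10 of these symbols were among the 24452 genes listed. Tregs, the CD4 T cells that carry the transcription factor Foxp3, came from livers of young mice, either Altre-WT or Altre-KO; the latter lack Altre, which is a long non-coding RNA found in Tregs. RNA sequencing gave 2 libraries per genotype and 4 in all, and the question set by the design is which transcripts differ between the genotypes. The labels give no strain, sex, exact age or knockout allele, and do not say if each library is a separate mouse. P-values thus rest only on the spread between these libraries, taken for each gene largely from that of all genes. That spread may be technical. The targeted transcript was not analysed here and the genotype labels were taken as given.

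TGF-beta is secreted in a latent form, which GARP, the product of Lrrc32, holds on the surface of activated Tregs until integrins release it. Active TGF-beta binds the receptor kinase TGFBR2, which recruits and phosphorylates TGFBR1, and TGFBR1 then phosphorylates SMAD2 and SMAD3, which enter the nucleus with SMAD4. SMAD7 blocks the receptor, and SKI and its relative SnoN (Skil) sit on SMADs and recruit repressor complexes. In T cells this pathway supports Foxp3 expression and the tissue integrin gene Itgae and restrains effector genes.

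Every library expressed the receptor pair, both receptor-activated SMADs, SMAD4, SMAD7, both corepressors and Lrrc32 at 100.6 CPM or more, while Tgfbr3 lay at 43.8 CPM or less. CPM, is the read count of a gene divided by the sum over listed genes in its library and brought to 1 common total. None of the 10 passed the test between genotypes (limma on log2(CPM + 1), Benjamini-Hochberg adjusted p of 0.999 for each), where 4 of 10486 genes tested, 0.0381%, did. An unadjusted p under 0.05 was reached by 1 of the 10, Ski, with knockout below, against 3.66% of all tested genes in either direction and 2.22% in that direction. All 10 were tested, and all had whole estimated reads in every library, so none showed reads split in fractions with another gene. Reads of overlapping genes that were counted whole would not show in this way. Limma-voom on estimated reads also called 0 of the 10, and so did the authors' deposited table, which put 3 genes of all under an adjusted p of 0.05.

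All 10 genes are protein-coding, with positions from GENCODE M21 (GRCm38). Tgfbr1 (47353222 to 47414931) and Ski (155154075 to 155222592) lie on chromosome 4, Tgfbr2 (116084293 to 116175360) and Smad3 (63646767 to 63757994) on chromosome 9, Tgfbr3 on chromosome 5 (107106570 to 107289629), Skil on chromosome 3 (31095058 to 31122577) and Lrrc32 on chromosome 7 (98489283 to 98502181). Smad2, Smad4 and Smad7 share chromosome 18.

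Estimated reads on listed genes numbered 1828773 and 2378955 in wild type and 3266133 and 2361931 in knockout. Knockout replicate 1 stood apart: its share of reads on listed genes was 32.79%, that of the other libraries 18.83% to 21.55%, and it had 14979 genes above 0 against 15829 to 16677. The Treg marker genes Il2ra, Ctla4, Ikzf2, Cd4 and Cd3e were present in every library, and Foxp3 was at 160.4 and 140.5 CPM in the wild-type libraries and 79.5 and 162 CPM in the knockout libraries. Summed markers of other cells were 82.0 and 137 CPM in the wild-type libraries and 126 and 96.5 CPM in the knockout libraries for Kupffer cells and macrophages (6 of 7 above 0, Vsig4 at 0), and 38.3 CPM or less for B cells, for CD8 T and NK cells and for hepatic stellate cells. Hepatocyte markers summed to 1.69 CPM or less, with Alb, Apoa2, Ttr and Fabp1 at 0 in all libraries, and neutrophil markers to 1.26 CPM or less. Liver endothelial markers summed to 175 to 224 CPM, of which Pecam1, which T cells also carry, made up 172 to 215 CPM.

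**Figure D1:**
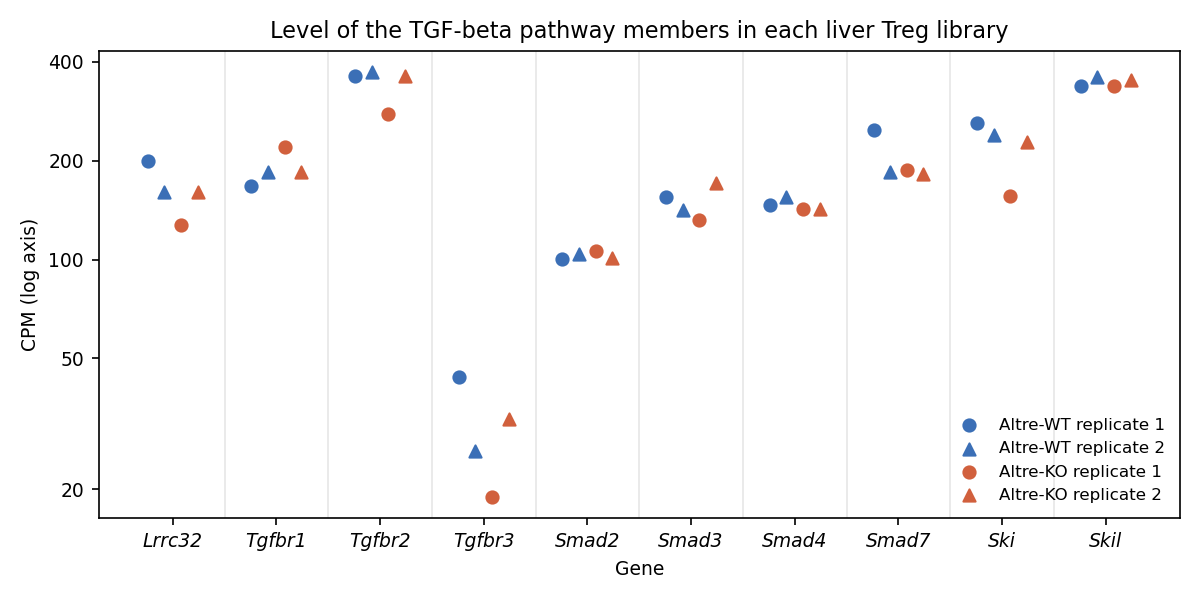
Level of each gene in CPM (log axis) in the 4 libraries; blue marks Altre-WT, orange Altre-KO, circles replicate 1 and triangles replicate 2. For Skil, and likewise for Smad2, the 4 libraries lie close to each other, while knockout replicate 1 has the lowest level of Ski (156 CPM) and Tgfbr2 (277 CPM) and the highest of Tgfbr1 (220 CPM).

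Lrrc32, which encodes the latent TGF-beta carrier GARP, was at 199.6 and 160.2 CPM in the wild-type libraries and 128 and 160.5 CPM in the knockout libraries. The genotypes overlapped, since wild-type replicate 2 and knockout replicate 2 were level and the other libraries lay on either side of them. The difference was -0.32 (as log2(CPM + 1) of knockout less wild type, SE 0.18, 95% interval -0.69 to 0.05), and it was -0.16 without knockout replicate 1 and -0.16 without wild-type replicate 1. Platelets also carry GARP. Their markers summed to 3.83 and 3.36 CPM in the wild-type libraries and 4.90 and 7.48 CPM in the knockout libraries (4 of 5 above 0), with Pf4 at 0 in every library.

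The ligand itself, Tgfb1, was at 42.6 and 42.9 CPM in the wild-type libraries and 26.9 and 41.1 CPM in the knockout libraries (log2 difference -0.35, 95% interval -0.91 to 0.20). Its low value was again in knockout replicate 1, and it was -0.06 without that library. Tgfb2 and Tgfb3 did not pass the filter on low values, at 4.2 CPM or less in every library. The related ligand gene Gdf11 passed the filter and had a difference of -0.32 (95% interval -1.18 to 0.53).

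Tgfbr2, the ligand-binding receptor, was at 361 and 372 CPM in the wild-type libraries and 277 and 362 CPM in the knockout libraries. Knockout replicate 1 alone was low, and knockout replicate 2 lay between the wild-type libraries (log2 difference -0.21, SE 0.16, 95% interval -0.54 to 0.11, and -0.02 without knockout replicate 1). Tgfbr1, the signalling receptor, was at 168 and 184.95 CPM in the wild-type libraries and 220.1 and 184.59 CPM in the knockout libraries. Here knockout replicate 1 was high and the genotypes overlapped narrowly (log2 difference 0.19, SE 0.16, 95% interval -0.15 to 0.53, 0.07 without knockout replicate 1 and 0.32 when knockout replicate 2 was left out).

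The ratio of the receptor pair within a library does not depend on how libraries are scaled. Tgfbr1 over Tgfbr2 in CPM was 0.464 and 0.497 in wild type, 0.794 in knockout replicate 1 and 0.509 in knockout replicate 2. The knockout libraries lay further from each other than knockout replicate 2 lay from either wild-type library. This ratio was chosen after the values were seen and carries no test.

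Tgfbr3, betaglycan, a co-receptor that presents the ligand, was the least expressed of the 10, at 43.8 and 26.1 CPM in the wild-type libraries and 19.0 and 32.6 CPM in the knockout libraries. These levels rest on 62 to 80 reads a library, and counting error alone gives knockout replicate 1 an exact 95% Poisson interval of 14.6 to 24.3 CPM. The difference of -0.43 (SE 0.32, 95% interval -1.09 to 0.24) had the largest SE of the 10, and was -0.05 without knockout replicate 1 and -0.06 without wild-type replicate 1. Hepatic stellate cell markers summed to 12.03 and 2.10 CPM in the wild-type libraries and 3.37 and 4.23 CPM in the knockout libraries. They were highest in wild-type replicate 1, where Tgfbr3 was highest too. Summed markers of B cells (38.28 CPM) and of CD8 T and NK cells (22.97 CPM) were also highest there, and those of the other cell types were not. The part of such cells in the level of Tgfbr3 was not tested. The annotated gene Gm43422 shares 297 exon bases with Tgfbr3 on the same strand and was not analysed here.

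Smad2 and Smad3, which the receptor phosphorylates, were level between genotypes within wide intervals. Smad2 was at 100.6 and 104 CPM in the wild-type libraries and 106 and 100.8 CPM in the knockout libraries (log2 difference 0.02, SE 0.18, 95% interval -0.36 to 0.39). Its 4 values spanned a ratio of 1.06, the narrowest of the 10 genes. Smad3 was at 155 and 142 CPM in the wild-type libraries and 132 and 171 CPM in the knockout libraries, so the knockout libraries enclosed both wild-type values (log2 difference 0.02, SE 0.18, 95% interval -0.35 to 0.38). These intervals correspond to 0.78-fold to 1.31-fold for Smad2 and 0.787-fold to 1.30-fold for Smad3. They are not limits of detection with 2 libraries per genotype, since Ski at 0.755-fold did not pass the test either.

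Smad4, the partner shared by all receptor-activated SMADs, was at 147 and 155 CPM in the wild-type libraries and 142.06 and 142.26 CPM in the knockout libraries. The genotypes did not overlap, with both knockout values below both wild-type values, as for 2 of the 10 genes (Smad4 and Ski) and for 16.1% of all tested genes. The difference was small beside its SE, which was drawn largely from the spread of all genes (log2 difference -0.08, SE 0.17, 95% interval -0.43 to 0.26). It ran from -0.12 to -0.05 when each library was left out.

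Smad7, the inhibitory SMAD that TGF-beta itself induces, was at 247 and 184.5 CPM in the wild-type libraries and 188 and 182 CPM in the knockout libraries. A single library, wild-type replicate 1, was high, and the other 3 lay within a few CPM of each other. The difference of -0.21 (SE 0.17, 95% interval -0.56 to 0.14) was 0.004 without that library and -0.42 without wild-type replicate 2. Smad7 over Smad4 in CPM was likewise 1.68 in wild-type replicate 1 and 1.19 to 1.32 in the others.

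Ski, the corepressor named for its viral counterpart, had the smallest p of the 10. It was at 261 and 239.6 CPM in the wild-type libraries and 156 and 228 CPM in the knockout libraries, 0.755-fold (95% interval 0.587 to 0.972; log2 difference -0.40, SE 0.18, limma unadjusted p = 0.0308, adjusted p = 0.999). Both knockout values lay below both wild-type values, but knockout replicate 1 carried most of the distance: the difference was -0.13 without it and -0.68 without knockout replicate 2, and it flips to 0.027 on the RPM scale, which divides by all reads of a library.

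Skil, which encodes the related corepressor SnoN and is itself a TGF-beta target, was at 338 and 360.2 CPM in the wild-type libraries and 339 and 351 CPM in the knockout libraries. Its difference was -0.02 (SE 0.15, 95% interval -0.32 to 0.29), with all 4 libraries within a ratio of 1.07. The corepressors lay apart in knockout replicate 1. Ski over Skil was 0.772 and 0.665 in wild type, 0.461 in knockout replicate 1 and 0.648 in knockout replicate 2.

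**Figure D2:**
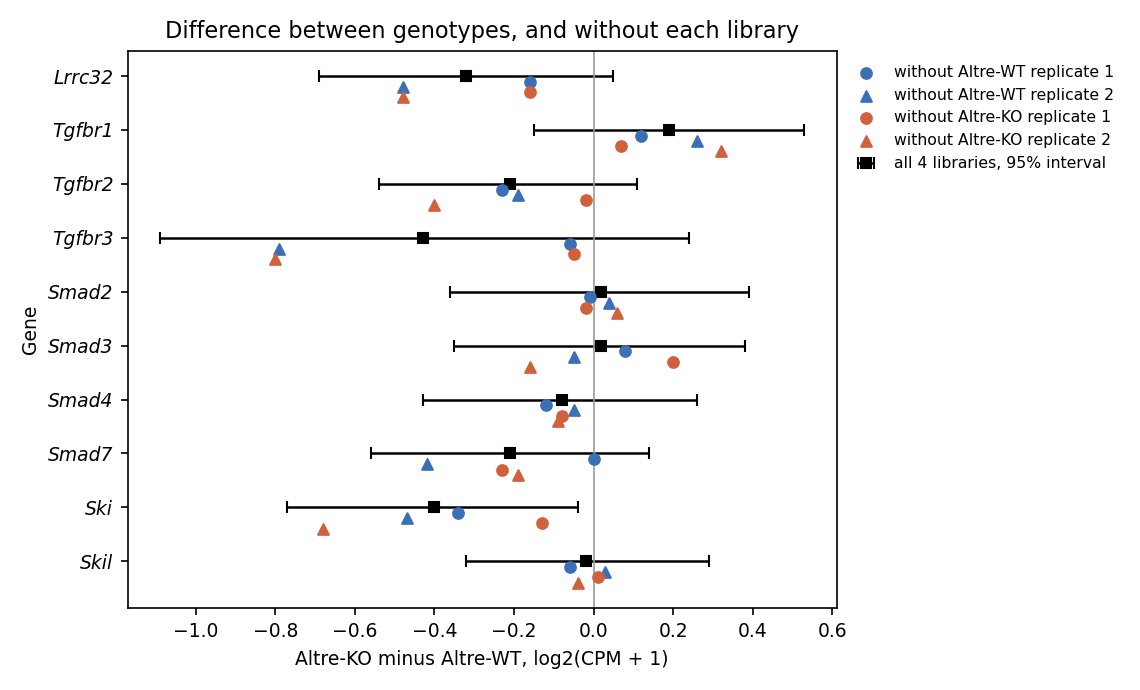
Difference between genotypes (knockout less wild type) in log2(CPM + 1); black squares and bars are the limma estimate from all 4 libraries and its 95% interval, coloured symbols the estimate without the named library. On this scale every interval but that of Ski spans 0, and Ski moves to -0.13 without knockout replicate 1.

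The start-site sequences of the receptor pair and of Ski are shown because the Tgfbr1 to Tgfbr2 ratio of knockout replicate 1 stood apart from the other libraries and Ski had the smallest p of the 10. Windows in the RefSeq table (GRCm38.p6) were found for Tgfbr1, Tgfbr2, Smad3 and Ski, 4 of the 10, and only bases before the annotated start are printed, 5′ to 3′ on the gene's strand. Capitals mark GGGCGG, the GC box bound by Sp1-family factors, and CAGAC, the short SMAD-binding box, on either strand (as CCGCCC or GTCTG on the opposite one).
Tgfbr1 (chr4:47352972-47353221, plus strand): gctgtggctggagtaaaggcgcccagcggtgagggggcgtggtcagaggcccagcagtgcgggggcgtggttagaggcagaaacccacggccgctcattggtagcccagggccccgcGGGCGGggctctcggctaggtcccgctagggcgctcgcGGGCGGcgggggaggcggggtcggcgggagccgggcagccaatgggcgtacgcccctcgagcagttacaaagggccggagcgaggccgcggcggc
Tgfbr2 (chr9:116175364-116175613, minus strand): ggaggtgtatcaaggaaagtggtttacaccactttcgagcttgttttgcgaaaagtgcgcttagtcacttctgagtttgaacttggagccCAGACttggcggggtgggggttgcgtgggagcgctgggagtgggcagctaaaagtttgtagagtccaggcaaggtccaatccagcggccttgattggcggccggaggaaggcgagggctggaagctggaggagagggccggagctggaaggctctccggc
Ski (chr4:155222593-155222785, minus strand): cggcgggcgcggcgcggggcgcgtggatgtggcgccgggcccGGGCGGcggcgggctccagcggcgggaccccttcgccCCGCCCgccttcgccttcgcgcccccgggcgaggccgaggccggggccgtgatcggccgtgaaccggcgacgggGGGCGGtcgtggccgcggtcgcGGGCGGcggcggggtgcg
GGGCGG occurred 2 times in the Tgfbr1 window printed, 4 times in that of Ski and 0 times in that of Tgfbr2. It was found in 32.7% of all 32851 windows over 250 bases, the length for Tgfbr1 and Tgfbr2, and in 23.5% over the 193 bases shown for Ski. CAGAC occurred 1 time in the Tgfbr2 window and 0 times in the other sequences printed, and was in 42.2% of all windows over 250 bases and 34.9% over 193. TATAAA was in none of the 3 sequences. Base composition differed, with 86.5% G and C for Ski, 74.8% for Tgfbr1 and 58.4% for Tgfbr2. A further RefSeq window of Tgfbr1, inside the gene (chr4:47385966-47386215), held CAGAC 1 time and GGGCGG 0 times and is not printed. A match describes these letters and not a bound site.

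**Figure D3:**
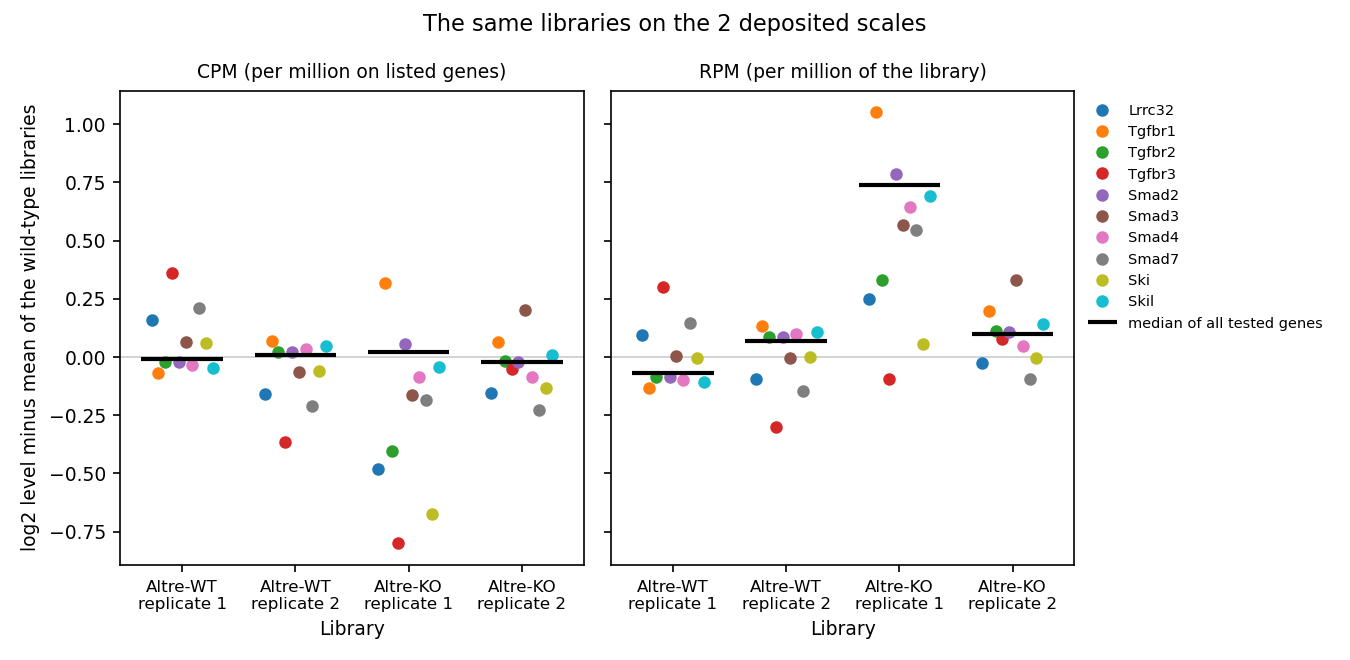
Log2 level of each gene in each library minus the mean of the wild-type libraries, on the CPM scale (left) and the RPM scale brought to it by 1 common factor (right); black bars are the median over all 10486 tested genes. On the RPM scale that median sits at 0.74 in knockout replicate 1, where Tgfbr1 lies above it and Ski and Tgfbr3 lie near 0, so differences below 0 on the CPM scale flip sign there for Ski, Lrrc32, Tgfbr2, Smad4, Smad7 and Skil.

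The deposited table also gives RPM, reads scaled to the total of the whole library, on which Ski was nearly constant. It was at 49.1 and 49.3 RPM in wild type and 51.2 and 49.1 RPM in knockout, a ratio of 1.04 between the highest and lowest library against 1.67 in CPM. Most other genes did not hold level on that scale: the median difference over all tested genes was 0.41 on the log2 scale, a scale that by construction follows the share of reads on listed genes. Relative to that median, Ski had a difference of -0.38, Tgfbr3 -0.42, Lrrc32 -0.30, Tgfbr2 -0.19, Smad7 -0.18 and Tgfbr1 0.21, and Smad2, Smad3, Smad4 and Skil lay between -0.06 and 0.04. None of the 10 passed on this scale (limma adjusted p from 0.712 to 0.994). Which of the scales reflects RNA per cell was not tested.

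Knockout replicate 1 had the lowest level of 6 of the 10 genes and the highest of 2, on the CPM scale, and wild-type replicate 1 the lowest of 3 and the highest of 4. Over all tested genes knockout replicate 1 was the lowest or highest library for 56.4%, against 51.5% and 45.3% for wild-type replicates 1 and 2 and 46.8% for knockout replicate 2. The median difference of the 10 was -0.15 beside -0.01 over all tested genes, with 7 below 0 and 3 above, where 52.1% of all tested genes were below 0; on the RPM scale 1 was below 0 and 6 lay below the median of all tested genes. On the CPM scale the median of the 10 was -0.04 without knockout replicate 1 and -0.06 without wild-type replicate 1.

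Levels of different genes were compared per kilobase of merged exons. The order of means was Smad7 (44.3 CPM per kilobase, range over the 4 libraries 40.4 to 54.7), Tgfbr2 (41.9), Ski (39.8), Smad4 (39.5), Skil (35.8), Lrrc32 (34.5), Tgfbr1 (29.0), Smad3 (27.1), Smad2 (11.7) and Tgfbr3 (4.64). Ranges of neighbours overlapped among the first 4, and among Skil, Lrrc32, Tgfbr1 and Smad3. These blocks were not separate either: the range of Lrrc32 (27.2 to 42.6) took in that of Smad4 (38.3 to 41.7). The order from Smad7 to Smad3 is therefore not fully resolved. Smad2 (11.5 to 12.1 CPM per kilobase) lay below Smad3 (23.9 to 30.8) in every library, and Tgfbr3 (2.90 to 6.68) below Smad2. By the longest transcript instead of merged exons, 5 of the 10 kept their place and Skil moved to the top at 51.7 CPM per kilobase, since its merged exons (9694 bases) are longer than its longest transcript (6717 bases).

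The wider pathway was read from 10 lists of 85 genes, of which 63 passed the filter on low values. None passed the test in either direction by limma or by limma-voom, and 2 had an unadjusted p under 0.05 (Ncor1 and Gzma), beside 3.66% of all tested genes. Gzma passed the filter only through the knockout libraries, where it was high, so its p is no support for a difference. On the CPM scale 43 of the 63 had a difference below 0 and 20 above, with a median of -0.07, beside 52.1% of all tested genes below 0; on the RPM scale 4 were below 0 and 40 below the median of all tested genes. Directions within lists are given on the CPM scale with all 4 libraries, and their counts were not repeated with each library left out. Without knockout replicate 1 some genes changed sign in either direction. Itgav went from -0.06 to 0.07 and Ctbp1 from 0.05 to -0.08. The genotypes did not overlap for 15 with knockout below (16.1% of all tested genes) and 3 with knockout above (14.7%).

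SMAD coactivators and corepressors had 6 of 11 below 0 and 5 above, with a median of -0.14. Ncor1, which encodes a corepressor that SKI binds, was at 447 and 450.2 CPM in the wild-type libraries and 298 and 420.4 CPM in the knockout libraries, and its difference of -0.34 (SE 0.16, 95% interval -0.68 to -0.01, limma unadjusted p = 0.0462, adjusted p = 0.999) was -0.09 without knockout replicate 1. Both knockout libraries lay below both wild-type libraries, with knockout replicate 1 farthest. The coactivator gene Ep300, a histone acetyltransferase, was at 166 and 157 CPM in the wild-type libraries and 86.3 and 171 CPM in the knockout libraries (-0.41, 95% interval -0.87 to 0.06), and 0.08 without knockout replicate 1.

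Enzymes that tag or dephosphorylate SMADs and receptors had 9 of 15 below 0 and 6 above (median -0.02). The ubiquitin ligase gene Wwp2 (176.6 and 146 CPM against 117 and 144 CPM) and the phosphatase gene Ctdsp1 (97.3 and 77.8 against 65.5 and 77.5 CPM) had the smallest p in that list, with differences of -0.30 and -0.28. Wwp2 was at -0.15 without knockout replicate 1, and Ctdsp1 at -0.12 without wild-type replicate 1 and -0.17 without knockout replicate 1. Receptor adaptors and inhibitors had 6 of 7 tested below 0 (median -0.06), and the smallest p belonged to Hgs (-0.28, and -0.16 without wild-type replicate 1) and Ldlrad4 (-0.13, and 0.11 without wild-type replicate 2). The TAK1 kinase branch, the SMAD-independent arm, had 3 of 5 below 0 (median -0.02), with Tab1 at 0.29 and Tab2 at -0.18, or 0.09 and -0.08 without knockout replicate 1.

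Of genes that handle latent TGF-beta, 4 of 10 were tested and all 4 lay below 0 (median -0.06). The integrin gene Itgav was at 132 and 189.6 CPM in the wild-type libraries and 139.6 and 166 CPM in the knockout libraries (-0.06), and Furin, which encodes the protease that cleaves the precursor, had a difference of -0.37 (95% interval -0.99 to 0.25). Without knockout replicate 1 Itgav was at 0.07, Itgb8 at 0.09, Furin at -0.13 and Nrros at -0.19. Itgav ranged from -0.31 to 0.20 over the libraries left out. Other receptors of the family had 4 of 7 tested below 0 (median -0.04). Nrp1, neuropilin 1, a Treg surface protein that binds TGF-beta, was at 589 and 673 CPM against 505 and 557 CPM (-0.25, 95% interval -0.55 to 0.05, and -0.15 without wild-type replicate 2). The BMP receptor gene Bmpr1a was at 4.37 and 5.89 CPM against 7.96 and 11.01 CPM (0.77, 95% interval -0.28 to 1.82). Of the other SMADs, Smad1 (-0.09) and Smad5 (0.27) were tested. Smad1 was at 0.08 without knockout replicate 2, and Smad5 at -0.06 without wild-type replicate 1 and 0.61 without wild-type replicate 2. Smad6 and Smad9 lay at 1.09 CPM or less.

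Genes that TGF-beta is known to raise in T cells had 5 of 6 tested below 0 (median -0.17), and genes it is known to lower had 4 of 6 below 0 (median -0.23), beside 52.1% of all tested genes. Itgae, the integrin chain of tissue T cells, was at 138 and 119 CPM in the wild-type libraries and 109 and 98.7 CPM in the knockout libraries (-0.30, SE 0.18, 95% interval -0.67 to 0.07, and -0.19 without wild-type replicate 1). Foxp3 had a difference of -0.40, and 0.11 without knockout replicate 1. Among the repressed genes, the cytokine gene Ifng had a difference of -0.78 (95% interval -1.89 to 0.33). That difference was 0.00 when knockout replicate 2 was left out and -1.56 when knockout replicate 1 was. The granzyme transcript Gzma stood at 1.09 and 1.26 CPM in wild type, or 2 and 3 reads. In the knockout libraries it was at 6.12 and 7.20 CPM, or 20 and 17 reads (limma unadjusted p = 0.0122, adjusted p = 0.999). Both wild-type values of Gzma lay below the 4.22 CPM of the filter, which it passed only through the knockout libraries.

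**Figure D4:**
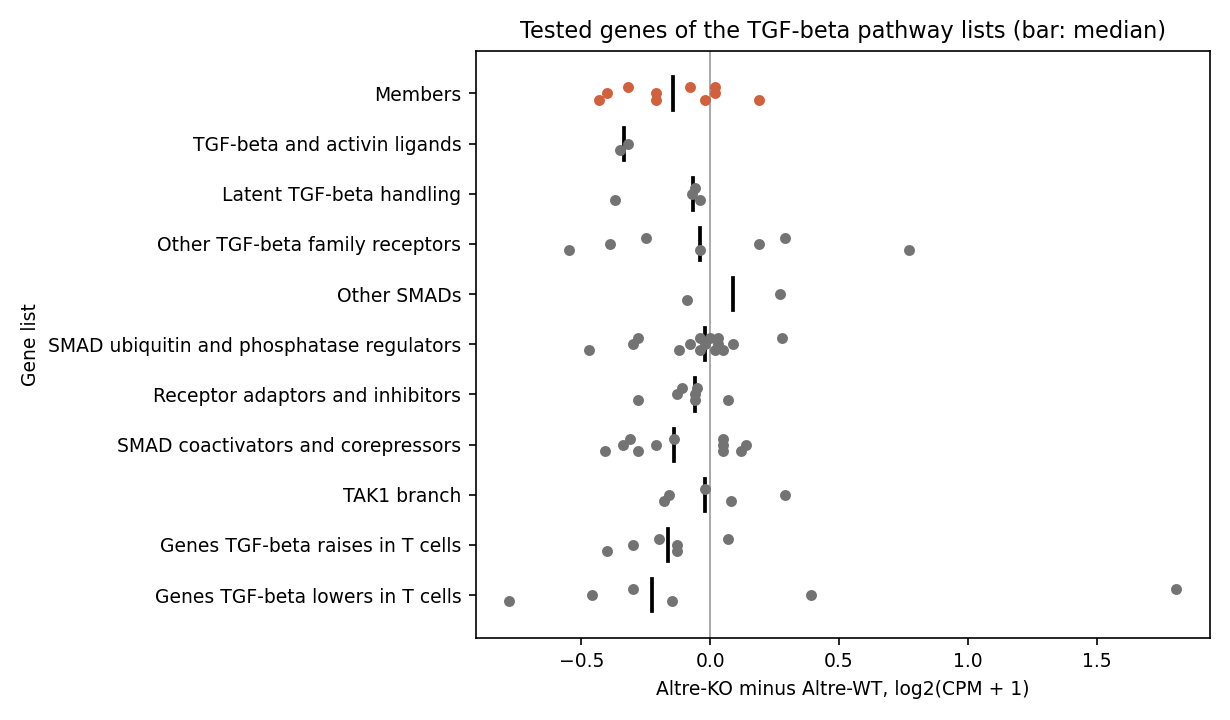
Difference between genotypes (knockout less wild type) in log2(CPM + 1) for every tested gene of each list (points) and the median of each list (black bar), with the 10 genes described here in orange. Most points lie within 0.5 of 0 and no point passed the test. Gzma is the point at 1.81, which rests on few reads and passed the filter only through the knockout libraries.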

How the data were processed

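Per the labels' protocols, RNA came from RNeasy Micro columns and libraries from a SMARTER mRNA kit. The submitters' processing notes name STAR, cutadapt, DESeq2 and the build mm10, without roles or versions; counter and annotation: not given in the sources used here. Values in the deposited table are CPM, which the authors scaled to the listed genes, and RPM, which the authors scaled to the whole library, with 1e-04 added, as read from the values. It also holds the authors' mean signal per genotype, its log2 ratio, and a p-value of a test the file headers do not name.

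The value of 1 read was taken as the most frequent RPM value above 0. Between 93.2% and 93.9% of values up to 500 reads came out whole within 0.02 of a read, so no count model was used except in limma-voom. Limma 3.58.1 (R 4.3.3) was run on log2(CPM + 1) with the variance trend and genotype as the only term, over the 10486 genes with at least 2 libraries at 4.22 CPM (10 estimated reads at the median depth), adjusting by Benjamini-Hochberg over all of them with a threshold of 0.05. It was tested on simulated data with known raised genes, the same spread in every library and no library standing apart, unlike these data. With 20.8 prior degrees of freedom, SEs and intervals rest largely on the variance trend over all genes. Fold changes on this scale understate those of low genes. The chi-square of reads between same-genotype libraries was 3.36 (wild type) and 9.53 (knockout) per degree of freedom, above sampling noise. Poisson intervals cover counting error only.

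The 10 genes and all lists were chosen with earlier results of these data known. All 10 are named, along with the 2 tested genes of smallest p in each list and the Treg markers; other named genes were chosen after their values were seen. A gene of the lists is not reported here and was left out of their counts. Symbols, exon lengths and positions are from GENCODE M21 (GRCm38). Alternatives covered scaling, test, filter, pseudocount, moderation, replicate block and leaving out each library. Figures were drawn with matplotlib 3.10.9.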

Additional observations from a re-analysis of the deposited data

How the results depend on the processing

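None of the 10 genes and none of the 63 listed pathway genes passed an adjusted p of 0.05 under any alternative run, nor did any of the 10 reach 0.10 with the settings of the report. Adjusted p over the alternatives went down to 0.200 for Ski, 0.462 for Tgfbr2 and 0.520 for Lrrc32, and was higher for the other 7. On the RPM scale, chosen after the data were seen, differences turned to 0.11 for Lrrc32, 0.027 for Ski, 0.42 for Skil, 0.35 for Smad4, 0.23 for Smad7 and 0.22 for Tgfbr2, and the median of the 10 to 0.29. By construction that scale follows the share of reads on listed genes. With upper-quartile scaling Skil was at 0.001. Leaving out each library in turn, the median of the 10 ranged from -0.17 to -0.04, and differences ranged from -0.062 to 0.030 for Skil, -0.020 to 0.055 for Smad2, -0.16 to 0.20 for Smad3 and -0.42 to 0.004 for Smad7; a genotype left with 1 library is assumed to vary like the other. Under lengths of the longest transcript 5 of 10 levels kept their place. Deviations of same-numbered libraries were hardly correlated over the tested genes (-0.0102). With 2 libraries per genotype this cannot tell whether the replicate numbers mark a pairing. With the number as a replicate block 0 of the 10 passed, with 6 genes called of all tested against 4. Against those 4, genes called of all tested numbered 2 with a pseudocount of 0.1, 1 without the variance trend and 6 on the RPM scale. Leaving out wild-type replicate 1 gave 6 and wild-type replicate 2 gave 16; leaving out knockout replicate 1 gave 6 and knockout replicate 2 gave 14. Low depth widens the intervals of genes with few reads, such as Tgfbr3 (62 to 80 reads) and Gzma (2 to 20).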

Other observations

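Outside the rule for naming genes, and chosen after its values were seen, Crebbp, the close relative of the coactivator gene Ep300, had its low value in the same library. Crebbp was at 189 and 188 CPM in the wild-type libraries and 108 and 214 CPM in the knockout libraries. Knockout replicate 1 held the lowest value of both genes, and knockout replicate 2 the highest. This form was not particular to them, as Smad3, Rnf111 and Traf6 had it too, and its share over all tested genes was not computed. Over all tested genes knockout replicate 1 was the lowest or highest library for 56.4% and knockout replicate 2 for 46.8%. Without knockout replicate 1 the difference of Crebbp was 0.18, and without knockout replicate 2 it was -0.80, beside -0.90 for Ep300. Foxp3 had the same form, at -0.91 without knockout replicate 2. The larger share of reads on listed genes in knockout replicate 1 moves with these values, and its part in them was not tested.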
